A study of Mus musculus with 6 samples.

Results

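RNA-seq values of 10 heat shock chaperone genes, Hspa8, Hspa1a, Hspa1b, Hsph1, Dnajb1, Hsp90aa1, Hsp90ab1, Hspd1, Hspe1 and Hspb1, were compared between colonic organoids from DSS-treated mice and from untreated mice. The genes were taken by symbol from a table of 40840 genes in 6 libraries, and all 10 were found in it. The DSS group held 3 libraries from wt C57BL/6 mice that drank 2.5% dextran sodium sulfate (DSS), which injures the colon epithelium, for 5 days from 10 weeks of age and for another 5 days after an interval of 2 weeks. The control group held 3 libraries from wt C57BL/6 mice without DSS, whose age is not given in the labels, so that age and treatment cannot be told apart. In both groups the crypt cells grew in Matrigel, in a medium conditioned by L-WRN cells to which small molecules had been added, and RNA was taken on day 4 of culture. The DSS cultures were started on day 14 after DSS. Each library came from a different mouse, so all values describe recently established cultures and not the colon itself.

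Chaperones bind unfolded stretches of other proteins and help them to fold, to be held in solution or to be passed on for degradation. Hspa8 encodes the HSP70 that cells make all the time, while Hspa1a and Hspa1b encode the stress-inducible HSP70 and are near-identical copies. Heat, oxidants and other damage to proteins release the transcription factor HSF1, which binds heat shock elements, repeats of a short inverted unit, in the promoters of these genes. In the intestine the epithelium renews itself constantly, and inducible HSP70 and the small heat shock protein HSP25, the product of Hspb1, have been studied as protective proteins of colonocytes.

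Promoter sequences are shown first because the genes are known as HSF1 targets, and the letters let a reader see which of them carry the unit to which HSF1 binds. RefSeq promoter windows (build GRCm38.p6, from 250 bases before to 50 bases after the start site) were found for 7 of the 10 genes, while Hspa8, Hsp90aa1 and Hsp90ab1 had none to search. Pairs of adjoining inverted units, spelled GAANNTTC or TTCNNGAA, were searched on both strands, which for these palindromic pairs is the same search. They were found in 6 of the 7 genes, all but Dnajb1, and in 17% of the 27025 genes with a window. A run of 3 adjoining units was found in Hspd1, Hspe1 and Hsph1, against 0.662% of all genes. A match in these letters is a description and not a binding site. The 250 bases before the start site are given for 4 genes, with every pair in capitals.
Hspe1 (chr1:55087898-55088147, plus strand): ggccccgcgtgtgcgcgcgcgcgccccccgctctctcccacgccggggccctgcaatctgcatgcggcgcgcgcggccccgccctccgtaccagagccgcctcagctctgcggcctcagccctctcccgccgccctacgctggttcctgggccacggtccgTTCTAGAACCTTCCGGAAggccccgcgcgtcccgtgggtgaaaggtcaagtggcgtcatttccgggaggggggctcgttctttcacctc
Hspb1 (chr5:135887669-135887918, plus strand): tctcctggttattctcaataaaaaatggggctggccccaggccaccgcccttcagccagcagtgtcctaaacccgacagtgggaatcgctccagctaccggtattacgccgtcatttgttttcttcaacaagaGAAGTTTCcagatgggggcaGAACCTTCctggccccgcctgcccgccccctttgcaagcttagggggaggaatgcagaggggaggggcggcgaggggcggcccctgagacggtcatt
Hspa1b (chr17:34959239-34959488, minus strand): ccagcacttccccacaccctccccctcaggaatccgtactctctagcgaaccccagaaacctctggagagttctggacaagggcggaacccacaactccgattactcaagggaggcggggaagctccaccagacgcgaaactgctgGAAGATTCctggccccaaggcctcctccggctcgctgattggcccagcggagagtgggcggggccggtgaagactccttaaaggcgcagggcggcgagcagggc
Hsph1 (chr5:149636337-149636586, minus strand): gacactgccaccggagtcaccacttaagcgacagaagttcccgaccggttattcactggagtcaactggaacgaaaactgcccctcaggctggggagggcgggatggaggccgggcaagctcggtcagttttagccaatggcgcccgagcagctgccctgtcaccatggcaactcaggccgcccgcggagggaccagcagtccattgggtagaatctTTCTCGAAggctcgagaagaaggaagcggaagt

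Hspd1 and Hspe1 lie head to head and are transcribed away from each other, and their matched stretch is one and the same piece of DNA (chr1:55088047-55088088). Its capitals begin 89 bases before the start of Hspe1 and 144 bases before one of the annotated starts of Hspd1. Read along the Hspd1 strand, with the units in capitals, it is the reverse complement of the stretch shown for Hspe1.
Hspd1 (chr1:55088047-55088088, minus strand): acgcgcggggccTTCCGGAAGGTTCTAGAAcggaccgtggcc
The run of 3 units of Hsph1 lies just after the start site.
Hsph1 (chr5:149636287-149636312, minus strand): aaatgctgcagaTTCTGGAAAGTTCt
The window of Hspa1a holds the same 32-base stretch around its pair as that of Hspa1b, and the full windows of 300 bases differ at 4 bases.
Hspa1a (chr17:34972241-34972272, minus strand): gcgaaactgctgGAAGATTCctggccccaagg

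Values are TPM, an abundance scaled to the same total in every library, which divides by transcript length and so allows levels to be compared between genes. Over the 6 libraries the order by mean TPM was Hspa8, Hsp90ab1, Hspe1, Hspd1, Hsp90aa1, Hspa1b, Hsph1, Dnajb1, Hspa1a and Hspb1. Hspa8 alone made up 39.9% of the summed mean TPM of the 10 genes in DSS organoids and 44.3% in control organoids. Hspb1 made up 0.0267% in DSS organoids and 0.104% in control organoids. Among neighbours in this order, the ranges of Hspa8 and Hsp90ab1, of Hsp90ab1 and Hspe1, and of Hsp90aa1 and Hspa1b did not overlap over the 6 libraries. The ranges of every other pair of neighbours overlapped. The 10 genes together took 0.415% to 0.518% of all TPM in the DSS libraries and 0.569% to 0.577% in the control libraries.

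The DSS libraries differed among themselves before any chaperone was considered. In a principal component analysis of the 11643 genes whose TPM averaged 1 or more, the leading component (55.6% of the variance) split the groups. On the next one (25.2%) DSS replicates 1, 2 and 3 lay at 32.3, -36.9 and -17.5, and control libraries at 4.36 to 11.7. DSS replicate 3 lay between DSS replicates 1 and 2 on both components. The summed TPM of 12 proliferation markers was 1275, 419 and 795 in DSS replicates 1, 2 and 3 and 288 to 327 in control libraries. Krt20, a keratin of mature colonocytes, had 17.1, 248 and 166 TPM in DSS replicates 1, 2 and 3, against 90.02 to 118 TPM in control libraries. A list of 13 epithelial markers summed to 15449, 27347 and 25503 TPM in DSS replicates 1, 2 and 3, against 23654 to 26309 TPM in control libraries. The sum was lowest in DSS replicate 1, and the colon label itself was not tested. Single markers differed, with a log2 fold change above 0 for 6 and below 0 for 7. Of the 13, 2 passed as higher (Epcam and Cdx2) and 0 as lower (limma, adjusted p under 0.05). In DSS replicate 1 itself Epcam (1007 TPM) and Cdx2 (303 TPM) were above every control library, while Krt20 was below every one. Markers of lymphocytes, fibroblasts and endothelium or smooth muscle summed to at most 2.13 TPM per list and library. A list of 18 myeloid markers summed to 359 to 489.6 TPM in DSS and 127 to 174 TPM in control libraries. Lyz2 had 123 to 227 TPM against 1.09 to 5.19 TPM. Of the 11 markers tested, 6 rose and 0 fell (limma, adjusted p under 0.05), beside 6.45% and 3.89% of all genes tested. At an unadjusted p under 0.05, 9 were higher and 0 lower. All but Lyz2 of the markers that rose averaged from 0 (Tyrobp) to 0.77 (Cd74) TPM in control libraries. They passed the filter only through DSS libraries and could be called only as higher, so their count is a description. The part of these differences in the chaperone values was not tested, and in bulk RNA fewer cells of a type and less RNA per cell cannot be told apart. Results that rest on DSS replicate 1 are therefore given with and without it, and several also without DSS replicate 2.

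Hspa8 and Hspb1 were the 2 of the 10 genes that fell in DSS organoids, and none rose (limma on log2(TPM + 1), Benjamini-Hochberg over all genes tested, adjusted p under 0.05). At an unadjusted p under 0.05, 3 of the 10 were lower and 0 higher, beside 1342 lower and 2104 higher of the 11643 genes tested. Over all genes tested, 10.3% passed at an adjusted p under 0.05, 6.45% higher and 3.89% lower in DSS organoids. A count of 2 in 10 genes is too small to be set apart from that background. The TPM ranges of the groups did not overlap for 4 of the 10 genes with DSS lower (Hspa8, Hspb1, Hsp90ab1 and Hspe1) and for 1 with DSS higher (Dnajb1), against 15.3% and 21.1% of all genes tested, 36.4% in either direction. The median log2 fold change of the 10 genes was -0.29, and that of all genes tested was 0.05.

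**Figure D1:**
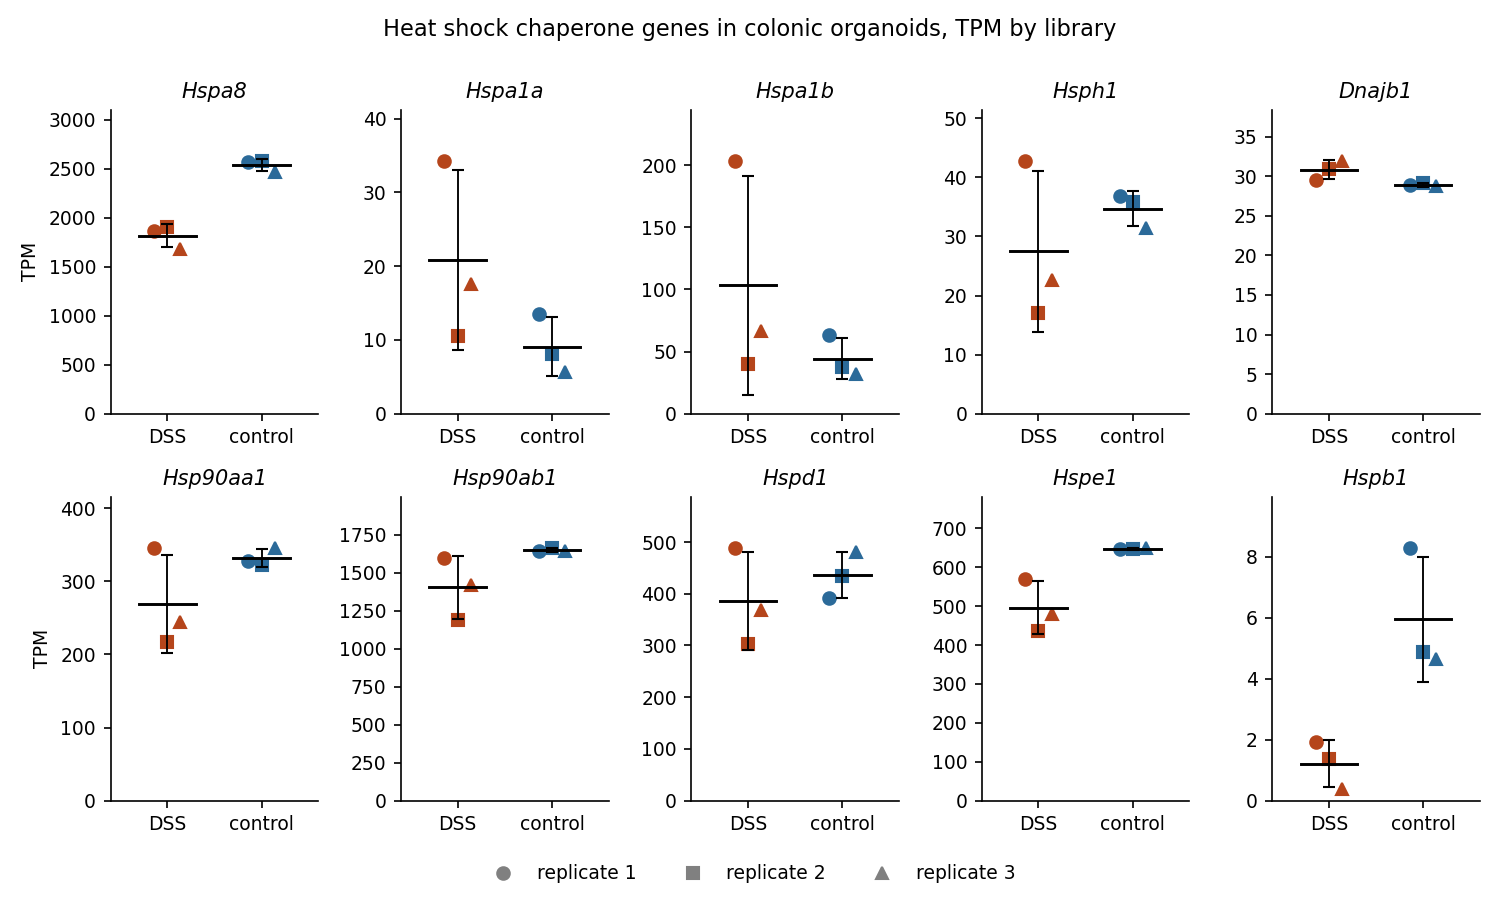
TPM of the 10 chaperone genes in each library (vertical axes, linear from 0, one scale per gene), with DSS libraries on the left and control libraries on the right of each panel. Symbols mark the replicate number, horizontal lines the group mean and bars the SD over 3 libraries. Hspa8 and Hspb1 lie lower in all 3 DSS libraries, and DSS replicate 1 is the highest DSS library for 8 of the 10 genes.

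Among the cytosolic HSP70 genes, Hspa8 had 1867, 1908 and 1683 TPM in DSS replicates 1, 2 and 3, against 2565, 2585 and 2469 TPM in control replicates 1, 2 and 3. Every DSS library was below every control library, and the DSS libraries lay close to each other. The mean was 1819 ± 120 TPM (SD, n = 3) in DSS organoids and 2540 ± 61.7 TPM (SD, n = 3) in control organoids, a ratio of 0.716. Its log2 fold change was -0.48 (SE 0.08, adjusted p = 0.023), and by exact two-sided permutation p was 0.1, which is as low as 3 libraries a group can go. Hspa8 depended little on DSS replicate 1, since its log2 fold change without that library was -0.50 (adjusted p = 0.0132). It no longer passed when DSS replicate 3 was left out (adjusted p = 0.0843) or when control replicate 1, 2 or 3 was left out (0.0929, 0.129 and 0.085), with log2 fold changes from -0.43 to -0.50 in these 4 fits. It also did not pass with no filter on TPM (adjusted p = 0.078) or with the replicate number as a block (adjusted p = 0.0595).

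The inducible HSP70 genes showed another pattern. Hspa1b had 204, 39.8 and 66.3 TPM in DSS replicates 1, 2 and 3, against 63.4, 38.0 and 31.7 TPM in control replicates 1, 2 and 3. DSS replicate 1 was far above all other libraries, and DSS replicate 2 lay within the control range. Hspa1a had 34.3, 10.5 and 17.6 TPM in DSS replicates 1, 2 and 3, against 13.5, 8.11 and 5.66 TPM in control replicates 1, 2 and 3. The 2 copies kept the same order of libraries within the DSS group, and the groups overlapped for both. The log2 fold change was 1.03 for Hspa1a (SE 0.45, adjusted p = 0.18) and 0.93 for Hspa1b (SE 0.58, adjusted p = 0.334), with 95% intervals of -0.04 to 2.11 and -0.46 to 2.31 that include no change. Without DSS replicate 1 they were 0.61 (adjusted p = 0.257) and 0.27 (adjusted p = 0.585), and without DSS replicate 2 they were 1.42 (adjusted p = 0.0649) and 1.43 (adjusted p = 0.109).

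Reads of the inducible pair are hard to tell apart. Of all 100-base windows in the Hspa1a transcript, 47.1% occurred letter for letter in that of Hspa1b, and 49.9% in the other direction, while Hspa1b and Hspa8 shared 0% (GENCODE vM21 transcripts). The split between the 2 copies is therefore an estimate by the counting tool. Their summed TPM was 238, 50.3 and 83.9 in DSS replicates 1, 2 and 3, against 76.9, 46.1 and 37.3 in control replicates 1, 2 and 3. Counted as 1 gene, the pair was 0.96 higher on the log2 scale (SE 0.56), which did not pass (adjusted p = 0.299).

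Hsph1 and Dnajb1 encode partners of HSP70, a nucleotide exchange factor of the HSP110 family and an HSP40 that delivers clients and drives ATP hydrolysis. Hsph1 had 42.9, 17.0 and 22.6 TPM in DSS replicates 1, 2 and 3, against 36.9, 35.8 and 31.4 TPM in control replicates 1, 2 and 3. DSS replicate 1 was above every control library and the other DSS libraries were below every one, so that no single direction described the group. Its log2 fold change was -0.43 (SE 0.31, adjusted p = 0.404), -0.79 without DSS replicate 1 (adjusted p = 0.0179) and -0.15 without DSS replicate 2 (adjusted p = 0.735). Dnajb1 had 29.6, 30.9 and 32.0 TPM in DSS replicates 1, 2 and 3, against 28.9, 29.2 and 28.7 TPM in control replicates 1, 2 and 3. It was the steadiest of the 10 genes across the DSS libraries, with a highest-to-lowest ratio of 1.08, and the only one whose DSS libraries were all above the control libraries. The log2 fold change of Dnajb1 was 0.09 (95% interval -0.13 to 0.31, adjusted p = 0.574).

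HSP90 holds kinases, steroid receptors and other clients near their folded state, and is made from an inducible gene, Hsp90aa1, and a constitutive one, Hsp90ab1. Hsp90ab1 had 1599, 1191 and 1420.2 TPM in DSS replicates 1, 2 and 3, against 1643, 1666 and 1643 TPM in control replicates 1, 2 and 3. All DSS libraries were lower, and control libraries agreed closely, yet the log2 fold change of -0.24 (SE 0.12) did not pass (adjusted p = 0.224). Hsp90aa1 had 345, 217 and 244 TPM in DSS replicates 1, 2 and 3, against 327, 322 and 346 TPM in control replicates 1, 2 and 3. Here DSS replicate 1 lay among the control libraries and the other DSS libraries below them (log2 fold change -0.33, SE 0.17, adjusted p = 0.252). Without DSS replicate 1 both genes passed as lower, Hsp90aa1 at -0.52 (adjusted p = 0.013) and Hsp90ab1 at -0.34 (adjusted p = 0.0453). Without DSS replicate 2 neither passed, with -0.19 for Hsp90aa1 (adjusted p = 0.437) and -0.13 for Hsp90ab1 (adjusted p = 0.359). The 2 transcripts shared 0% of their 100-base windows.

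Hspd1 and Hspe1 encode HSP60 and its lid HSP10, the barrel-shaped chaperonin of the mitochondrial matrix, from the shared promoter shown above. Hspe1 had 570.3, 436 and 480.2 TPM in DSS replicates 1, 2 and 3, against 646, 646 and 650.3 TPM in control replicates 1, 2 and 3. Every DSS library was lower, and the control libraries were nearly equal. The log2 fold change of Hspe1 was -0.39 (SE 0.11, adjusted p = 0.076), -0.50 without DSS replicate 1 (adjusted p = 0.011) and -0.31 without DSS replicate 2 (adjusted p = 0.0971). Hspd1 had 489, 302 and 369 TPM in DSS replicates 1, 2 and 3, against 391, 435 and 480.2 TPM in control replicates 1, 2 and 3. Its groups overlapped because DSS replicate 1 exceeded every control library (log2 fold change -0.20, SE 0.18, adjusted p = 0.525). Without that library the log2 fold change of Hspd1 was -0.38 and still did not pass (adjusted p = 0.0775), and without DSS replicate 2 it was -0.03 (adjusted p = 0.909).

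Hspb1, the small heat shock protein that binds unfolded proteins without ATP and associates with actin filaments, had the lowest level of the set and the largest relative decrease. It had 1.91, 1.37 and 0.37 TPM in DSS replicates 1, 2 and 3, against 8.30, 4.89 and 4.64 TPM in control replicates 1, 2 and 3. Every DSS library was below every control library. The mean was 1.22 ± 0.781 TPM (SD, n = 3) in DSS organoids and 5.94 ± 2.04 TPM (SD, n = 3) in control organoids, a ratio of 0.205. Its log2 fold change was -1.68 (SE 0.34, adjusted p = 0.0306), and the exact two-sided permutation test gave p = 0.1. On log2(TPM + 1) the change of so low a gene is understated, and with a pseudocount of 0.1 it was -2.39 (adjusted p = 0.0454). Without DSS replicate 1 it was -1.91 (adjusted p = 0.0148). The call was lost when DSS replicate 3 was left out (log2 fold change -1.36, adjusted p = 0.0877) or when control replicate 1, 2 or 3 was left out (adjusted p = 0.102, 0.114 and 0.0866), and with no filter on TPM (adjusted p = 0.062).

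**Figure D2:**
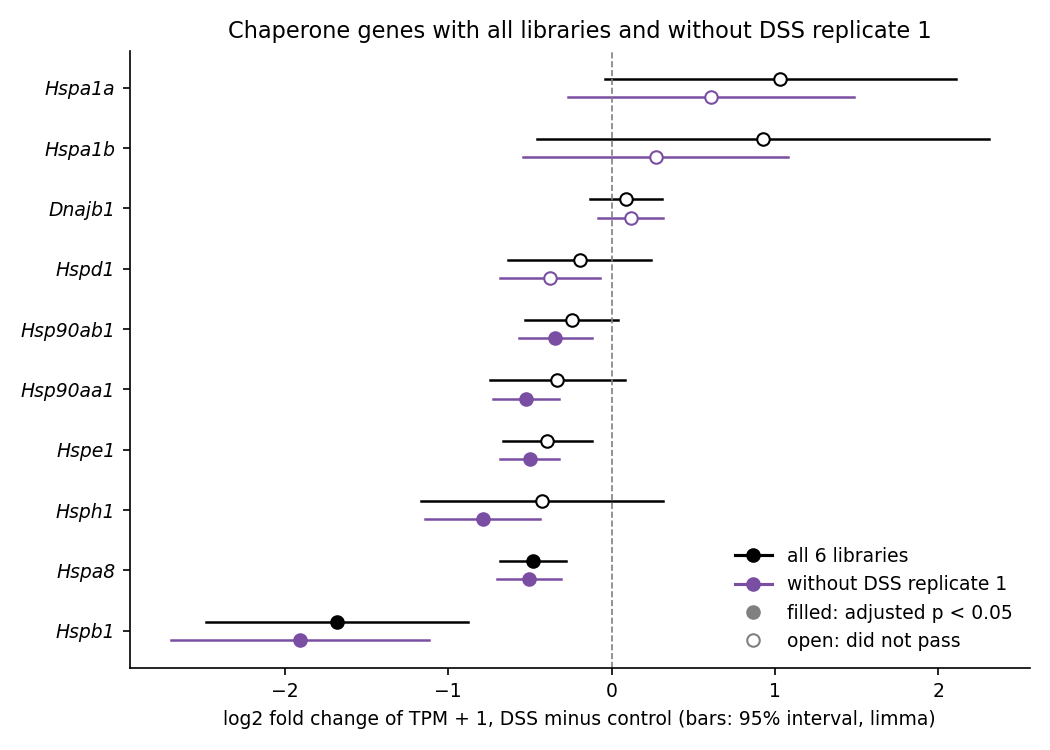
Log2 fold change of TPM + 1, DSS minus control (horizontal axis), for the 10 genes with all 6 libraries (black) and without DSS replicate 1 (purple). Bars are 95% intervals from limma, filled points passed an adjusted p of 0.05 and open points did not. With all libraries 2 genes passed as lower, without DSS replicate 1 these and 4 more did. Without DSS replicate 2, which is not drawn, the same 2 passed.

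The DSS libraries differed more among themselves than the control libraries did, over the transcriptome as in these genes. The ratio of the highest to the lowest library was wider in the DSS group than in the control group for all 10 genes and for 74.9% of all genes tested, with 5.12 in the DSS group and 2.00 in the control group for Hspa1b, and 1.31 in the DSS group and 1.01 in the control group for Hspe1. DSS replicate 1 was the highest DSS library for 8 genes (35.6% of all genes tested) and DSS replicate 2 the lowest for 7 (36.3%). The order DSS replicate 1, then 3, then 2 was shared by 7 genes, all but Hspa8, Hspb1 and Dnajb1, beside 26.1% of all genes tested, and Mki67, a proliferation marker, had the same order with 58.1, 46.7 and 22.6 TPM. For 7 genes DSS replicates 2 and 3 were both below every control library, as they were for 20.8% of all genes tested. These patterns were noticed in the data and were not tested.

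Without DSS replicate 1, 6 of the 10 genes passed as lower (Hspa8, Hspb1, Hsp90aa1, Hsp90ab1, Hspe1 and Hsph1) and 0 as higher. The unadjusted p was under 0.05 for 7 lower and 0 higher, with no share of all genes given beside it. In that fit 21.7% of the 11587 genes tested passed, 7.09% as lower, so more genes passed overall as well. Of the 99 other chaperone genes tested there, 14 passed as lower and 9 as higher, with a median log2 fold change of -0.05. The median log2 fold change of the 10 genes was then -0.44, beside 0.08 for all genes tested. Leaving out DSS replicate 2 moved the genes the other way, to a median of -0.14 beside 0.04 for all genes tested. There the genes that passed were again Hspa8 (-0.52, adjusted p = 0.0188) and Hspb1 (-1.76, adjusted p = 0.0341), both lower, and the unadjusted p was under 0.05 for 3 lower and 2 higher. In that fit 16.3% of all genes tested passed, 5.6% as lower.

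Ratios within a library do not depend on how TPM was scaled between libraries, and 5 of them were compared by exact two-sided permutation, where p cannot go below 0.1. The log2 ratio of Dnajb1 to Hspa8 was -5.98, -5.95 and -5.72 in DSS replicates 1, 2 and 3, against -6.47, -6.47 and -6.43 in control replicates 1, 2 and 3. These groups did not overlap, and the mean differed by 0.57 (exact permutation p = 0.1). The separation follows from values given above, since every DSS library was above the control libraries for Dnajb1 and below them for Hspa8. The log2 ratio of Hspa1a plus Hspa1b to Hspa8 was -2.97, -5.25 and -4.33 in DSS replicates 1, 2 and 3, against -5.06, -5.81 and -6.05 in control replicates 1, 2 and 3. The inducible share of HSP70 transcripts was thus highest in DSS replicate 1, and DSS replicate 2 lay within the control range (difference 1.46, exact permutation p = 0.2, and 0.85 without DSS replicate 1). The remaining ratios overlapped between the groups, with differences and exact permutation p of -0.09 for Hsp90aa1 to Hsp90ab1 (p = 0.5), 0.20 for Hspd1 to Hspe1 (p = 0.2) and 0.04 for Hsph1 to Hspa8 (p = 0.9). Adjusted over the 5 ratios by the Benjamini-Hochberg method, no p was under 0.333.

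**Figure D3:**
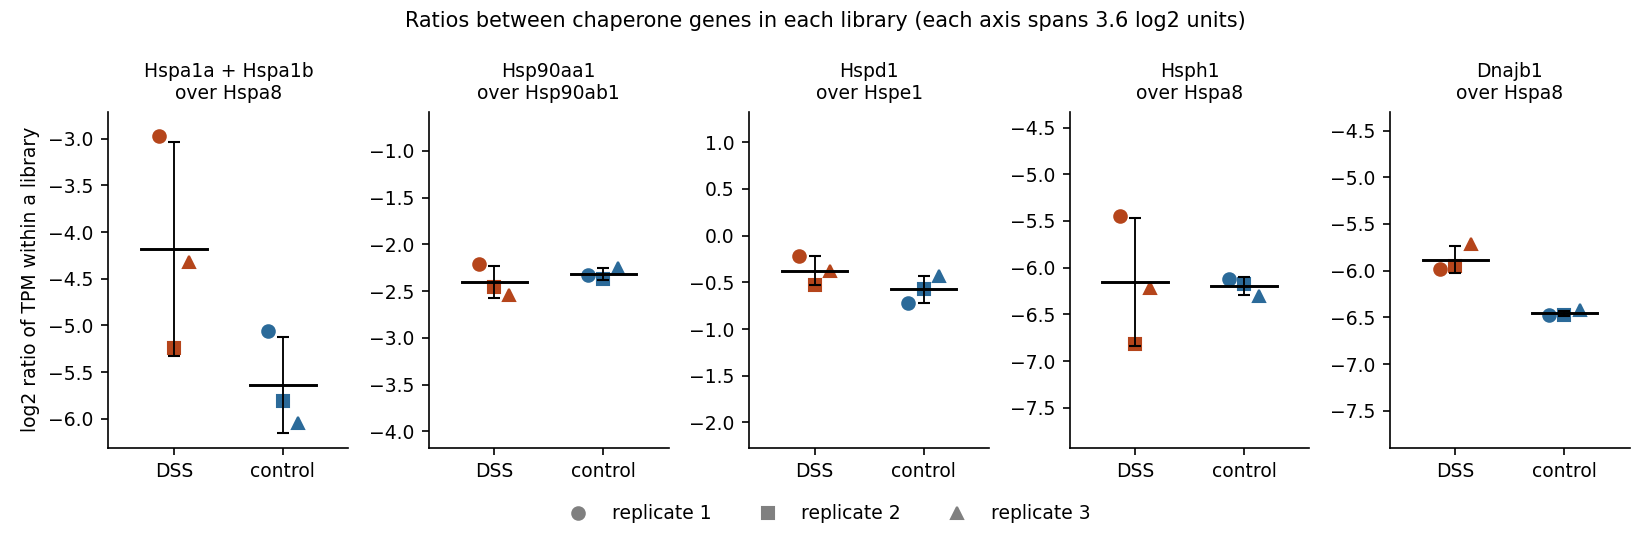
Log2 ratios of TPM between chaperone genes within each library (vertical axes, each spanning the same number of log2 units), DSS libraries left and control libraries right. Symbols mark the replicate number, lines the mean and bars the SD over 3 libraries. Only for Dnajb1 over Hspa8 do the groups not overlap, which follows from the separate TPM ranges of both genes.

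The summed TPM of the 10 genes was 5184, 4154 and 4335 in DSS replicates 1, 2 and 3, against 5724, 5770.2 and 5691 in control replicates 1, 2 and 3. All DSS libraries were lower, and the means were 4558 ± 549.7 (SD, n = 3) in DSS organoids and 5728 ± 40.0 (SD, n = 3) in control organoids. No test was made of this sum because the genes were chosen with results known, and it follows mainly Hspa8 and Hsp90ab1.

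Other chaperone genes were counted over 11 lists with 110 genes besides the 10, of which 100 were tested. Of these, 6 passed the threshold (6%, beside 10.3% of all genes tested), 2 as higher and 4 as lower. An unadjusted p under 0.05 was found for 22 of the 100, beside 2104 higher and 1342 lower of the 11643 genes tested. Their median log2 fold change was -0.02. Fkbp5, an HSP90 co-chaperone and glucocorticoid response gene, rose the most, with 39.9, 72.2 and 83.9 TPM in DSS replicates 1, 2 and 3, against 13.1, 19.5 and 16.1 TPM in control replicates 1, 2 and 3 (log2 fold change 1.90, adjusted p = 0.0167). Hspb6, a small heat shock protein known from muscle, had 6.44, 5.4 and 7.35 TPM in DSS replicates 1, 2 and 3, against 2.30, 3.14 and 2.64 TPM in control replicates 1, 2 and 3 (ratio of means 2.38, adjusted p = 0.021), opposite in direction to Hspb1. The HSP40 gene Dnaja4 had 0.70 to 1.23 TPM in DSS and 2.51 to 4.42 TPM in control libraries (log2 fold change -1.12, adjusted p = 0.0323). Its DSS mean of 0.95 TPM was under the filter of 1, so it was tested only through its control libraries. Ppid, a cyclophilin that binds HSP90 (log2 fold change -0.55, adjusted p = 0.0307), Pfdn6, a prefoldin subunit (-0.37, adjusted p = 0.0426), and Grpel1, the nucleotide exchange factor of mitochondrial HSP70 (-0.38, adjusted p = 0.049), were the others that fell. None of the 6 passed without control replicate 1, 2 or 3, or without DSS replicate 3. With no filter on TPM Dnaja4 (adjusted p = 0.0558) and Grpel1 (adjusted p = 0.0503) did not pass.

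The heat shock transcription factor genes did not pass in either direction (0 of 4 tested, 1 higher and 0 lower at an unadjusted p under 0.05). Hsf1, the main regulator of the response, had 33.4, 25.4 and 28.9 TPM in DSS replicates 1, 2 and 3, against 30.5, 28.0 and 22.2 TPM in control replicates 1, 2 and 3 (log2 fold change 0.12, adjusted p = 0.662). Hsf4 had 3.00 to 3.88 TPM in DSS and 1.01 to 1.89 TPM in control libraries (log2 fold change 0.78, adjusted p = 0.058). Hsf4 passed as higher with no variance trend (adjusted p = 0.0441) and without DSS replicate 1 (adjusted p = 0.045). For Hsf2 the log2 fold change was 0.29 (adjusted p = 0.44) and for Hsbp1, whose product binds HSF1, -0.11 (adjusted p = 0.508). Hsf3 and Hsf5 were below the filter. HSF1 activity is set by the protein, which was not measured. Of 21 other HSF1 target genes tested, 1 fell (Dnaja4, which passed the filter only through control libraries) and 0 rose. Their median log2 fold change was -0.01, with 3 lower and 2 higher at an unadjusted p under 0.05.

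By compartment, the 8 genes of the cytosolic chaperonin TRiC, which folds actin and tubulin, had log2 fold changes from -0.33 to -0.02, all below 0, and 0 passed (3 lower and 0 higher at an unadjusted p under 0.05). Cct4 was nearest to the threshold with 208, 232 and 211 TPM in DSS replicates 1, 2 and 3, against 267, 281 and 267 TPM in control replicates 1, 2 and 3 (log2 fold change -0.33, adjusted p = 0.062, and 0.046 under median-ratio scaling). When DSS replicate 1 was left out, Cct4, Cct5, Cct7 and Cct8 passed as lower (limma, adjusted p = 0.0443, 0.0325, 0.025 and 0.02). The 6 prefoldin genes had a median of -0.20 with 1 lower, and the 12 mitochondrial chaperone and protease genes a median of -0.18 with 1 lower and 0 higher. The 13 ER chaperones tested had a median of 0.19, with 12 of 13 above 0, and 0 passed (2 higher and 0 lower at an unadjusted p under 0.05). The gene below 0 was Hspa5, the HSP70 of the ER (log2 fold change -0.18, adjusted p = 0.454). Its means were 362 TPM in DSS and 408 TPM in control libraries. The ER list summed to 2934, 2143 and 2487 TPM in DSS replicates 1, 2 and 3, against 2077 to 2206 TPM in control libraries. Without DSS replicate 1, Hspa5, Pdia4 and Creld2 were below 0 (-0.09, -0.03 and -0.01) and the others above 0. In that fit only Dnajb9 of this list passed, as higher (limma, log2 fold change 0.69, adjusted p = 0.0223). Hsp90b1, the HSP90 of the ER, had 323, 177 and 253 TPM in DSS replicates 1, 2 and 3, against 138, 144 and 157 TPM in control replicates 1, 2 and 3. Its DSS libraries were all above the control libraries, unlike those of cytosolic Hsp90aa1 and Hsp90ab1, and it had the DSS order 1, 3, 2 (log2 fold change 0.74, adjusted p = 0.0742). Leaving out DSS replicate 2 gave 0.96 (adjusted p = 0.0121), and leaving out DSS replicate 1 gave 0.53 (adjusted p = 0.0577).

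The other HSP70 and HSP110 genes had a median of 0.15 (7 tested, 0 passed, 1 higher and 1 lower at an unadjusted p under 0.05). Hspa4l, an HSP110 gene, had 67.5, 20.2 and 25.4 TPM in DSS replicates 1, 2 and 3, against 14.9, 13.2 and 15.9 TPM in control replicates 1, 2 and 3. It had the same DSS order as Hspa1b, here with all DSS libraries above the control libraries (log2 fold change 1.11, adjusted p = 0.134). Leaving out DSS replicate 1 gave 0.59 (adjusted p = 0.0308), and leaving out DSS replicate 2 gave 1.44 (adjusted p = 0.055). Its relative Hspa4 had 103 to 117 TPM in DSS and 133 to 142 TPM in control libraries (log2 fold change -0.29, adjusted p = 0.0971). Cryab, a small heat shock protein gene, had 37.6, 2.21 and 3.12 TPM in DSS replicates 1, 2 and 3, against 7.35, 6.35 and 6.67 TPM in control replicates 1, 2 and 3. DSS replicate 1 alone was above the control libraries, so its log2 fold change was 0.04 with all libraries (adjusted p = 0.982) and -1.10 without DSS replicate 1 (adjusted p = 0.0106). Bag3, an exchange factor induced with HSP70, had 37.6 to 43.9 TPM in DSS and 31.4 to 33.3 TPM in control libraries (log2 fold change 0.31, adjusted p = 0.108), and 0 of the 8 nucleotide exchange and BAG genes passed (1 higher and 0 lower at an unadjusted p under 0.05).

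**Figure D4:**
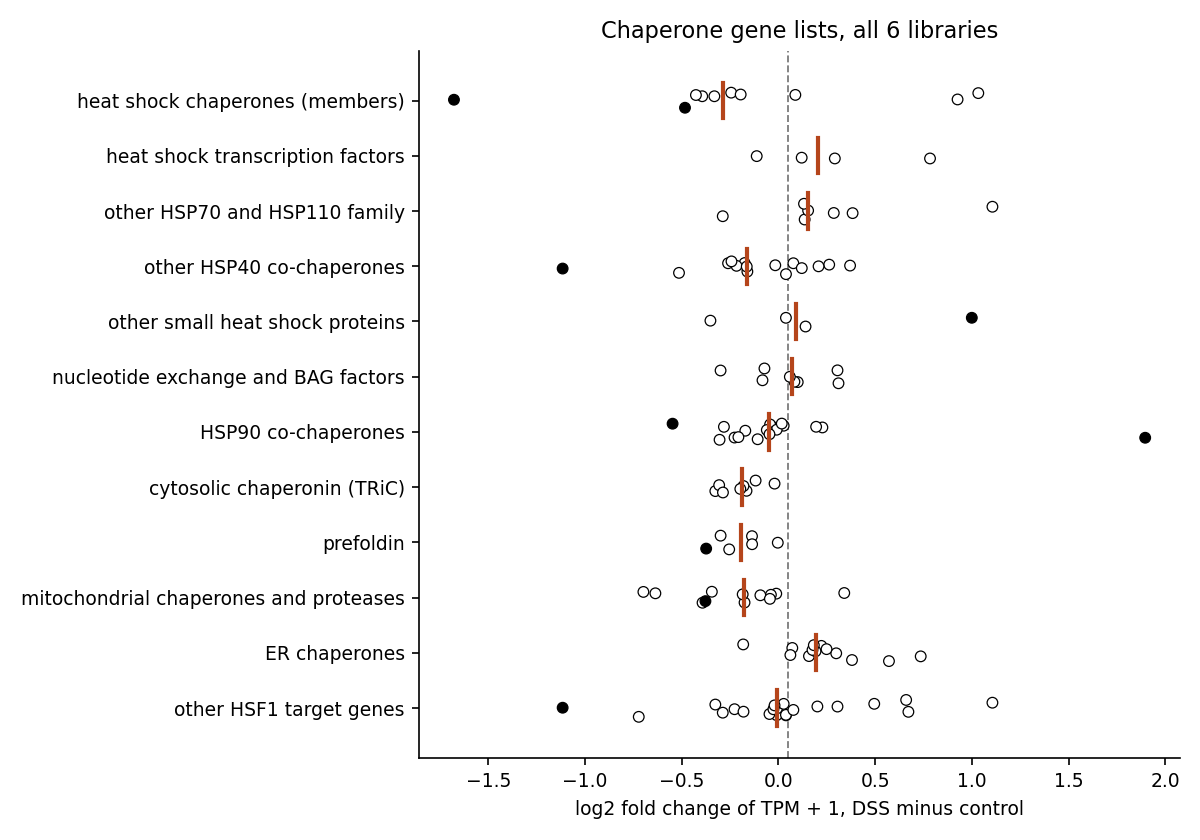
Log2 fold change of TPM + 1, DSS minus control (horizontal axis), of every tested gene in 12 chaperone lists, with all 6 libraries. Points are genes, black where the adjusted p was under 0.05, red bars are list medians and the dashed line is the median of all genes tested (0.05). The 10 heat shock chaperones have the lowest list median shown (-0.29), next to prefoldin (-0.20), and ER chaperones lie mostly right of 0. Genes and lists were chosen with earlier results of these data known, so this rank is a description. A gene can be in 2 lists.

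Early stress genes, which cells switch on soon after stress or handling, were counted as well. Of 14 tested, 1 fell and 0 rose in DSS organoids (3 lower and 0 higher at an unadjusted p under 0.05), with a median log2 fold change of -0.42. The list summed to 758, 1733 and 1243 TPM in DSS replicates 1, 2 and 3, against 1448 to 1777 TPM in control libraries. DSS replicate 1 was thus the lowest library, and no median is given without it, so a general fall is not shown. The gene that fell was Nr4a1, a nuclear receptor of the early response, with 5.97, 8.21 and 6.54 TPM in DSS replicates 1, 2 and 3, against 20.1, 20.9 and 21.6 TPM in control replicates 1, 2 and 3 (log2 fold change -1.48, adjusted p = 0.00623). Its DSS libraries were all lower and close to each other. Fos had 18.7, 80.4 and 32.5 TPM in DSS replicates 1, 2 and 3, against 26.2, 49.9 and 61.7 TPM in control replicates 1, 2 and 3. The groups overlapped for Fos (log2 fold change -0.23, adjusted p = 0.814).

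The mean profile of the 10 genes over the 6 libraries, on log2(TPM + 1) centred per gene, was most like those of Commd9, Asb13, Foxa3, Pak6 and 9030025P20Rik, with a mean absolute difference of 0.03 to 0.06 log2 units over the 6 libraries. Commd9 had 53.9, 31.6 and 36.9 TPM in DSS replicates 1, 2 and 3, against 51.9, 46.4 and 41.6 TPM in control replicates 1, 2 and 3. Because Commd9 was picked for its likeness to this profile, the shared high DSS replicate 1 and low DSS replicates 2 and 3 follow from the choice (log2 fold change -0.22, adjusted p = 0.522). The profile is a mean, and DSS replicate 1 was not the highest DSS library for Hspa8 or Dnajb1.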

How the data were processed

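The deposited table holds the TPM of 40840 genes in 6 libraries (3 DSS, 3 control), which were prepared using NEBNext Ultra II reagents. Trimming by Trim Galore 0.6.7 and cutadapt 3.5, STAR 2.7.7a and 2.7.10a, RSEM 1.3.1 and build GRCm39 are listed in the submitters' processing notes. RSEM divides reads that fit several transcripts by estimation, which bears on Hspa1a and Hspa1b. RefSeq lists 23 pseudogene copies of Hspd1 and 7 of Hspe1, and reads from such copies were not analysed here. Strand use is not given in the sources used here. The depth is unknown because TPM keeps none, so no counting interval is given.

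Samples were grouped by the labels. The 11643 genes whose TPM averaged 1 or more were compared on log2(TPM + 1) with limma 3.58.1 in R 4.3.3 (empirical Bayes with a mean-variance trend, two-sided), and p-values were adjusted over all of them by Benjamini-Hochberg (threshold 0.05). Fold changes of low genes are understated on this scale. At an unadjusted p under 0.05, 2104 of the 11643 genes were higher and 1342 lower. This is the background for every unadjusted count from the main fit. Unadjusted counts from other fits have no share over all genes beside them. The script was tested on simulated data. Single values were also compared by an exact permutation test (20 arrangements). Genes named were all 10 chaperones, genes from among the 4 with the smallest p in each chaperone list, every heat shock factor gene and the 5 of most similar profile. The 10 genes and the lists were chosen with earlier results of these data known. Fos, Nr4a1, Krt20, Epcam, Cdx2, Lyz2, Tyrobp, Cd74, Mki67, Hspa5, Dnajb9, Pdia4, Creld2, Cct5 and the transcript windows were chosen after values were seen. Promoter coordinates are of GRCm38.p6 and not of the build of the table. A planned comparison of proteins was not run. Alternatives were the pseudocount, the filter, scaling, the variance trend, a replicate block and leaving out each library.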

Additional observations from a re-analysis of the deposited data

How the results depend on the processing

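The count of chaperones that passed was 2 of 10 under a pseudocount of 0.1, median-ratio scaling, quantile normalization and no variance trend. It was 0 with no filter (3 lower and 0 higher at an unadjusted p under 0.05) and 1 at a mean TPM of at least 5, where Hspb1 was not tested. Leaving out 1 library gave 0 to 6, with 6 without DSS replicate 1, 2 without DSS replicate 2, and 0 without DSS replicate 3 or without any 1 control replicate. In each of those 4 fits 3 genes were lower at an unadjusted p under 0.05, and 1 was higher without control replicate 1 and 0 in the other 3 fits. Among all genes the count of 1204 became 759 with no filter, 531 with the replicate block, and 44 to 2515 without 1 library (44 without control replicate 2). Of the calls, 62.4% were higher in DSS as deposited, 51.4% under median-ratio scaling and 48.2% under quantile normalization. Other chaperones counted 6 in the main analysis, 1 with the replicate block, and 0 to 23 without 1 library. Of 131 values of the 10 chaperones under an alternative, 116 kept direction and side of the threshold, 11 no longer passed, 4 newly passed and 0 turned round. Values that turned round were those of Cryab (-0.072 with a pseudocount of 0.1, -0.0067 under median-ratio scaling, -0.058 under quantile normalization, and from -1.10 without DSS replicate 1 to 0.70 without DSS replicate 2, -0.0020 without control replicate 2), Hsf1 (-0.0070 without control replicate 3, 0.21 without DSS replicate 2) and the log2 ratio of Hsph1 to Hspa8, which ranged from -0.32 without DSS replicate 1 to 0.37 without DSS replicate 2, and was -0.012 without control replicate 3. The cause was not tested.

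With the replicate number as a block, Hspb1 passed (adjusted p = 0.0309) and Hspa8 did not (adjusted p = 0.0595), which left 1 of 10. Same-numbered DSS and control libraries deviated from their group means with correlations of 0.20, 0.03 and 0.04 over genes, and not every library correlated best with its own number, so the numbers were not taken to pair the mice. Low values such as Hspb1 are limited by a depth that TPM does not keep.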
